A study of Mus musculus with 9 samples.

Results

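Collagen chain genes were taken as every protein-coding row of the deposited gene table whose symbol is Col, a type number, the letter a and a chain number, which gave 44 of 26858 genes. *Col21a1* has no row under this name, and *Col4a3bp*, which encodes a lipid transfer protein, is not a member. By structure, the 44 genes fall into 11 fibrillar chains, 6 collagen IV chains of the basement membrane, 9 FACIT chains (fibril-associated collagens with interrupted triple helices), 6 collagen VI chains, 2 multiplexins, 4 transmembrane chains and 6 network, anchoring and other chains.

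RNA-seq was performed on SIX2 progenitors, sorted by fluorescence at age E18.5 (E, embryonic day). Kidneys came from *Six2-Qpc*+/− mice, referred to as controls (n = 4), or from *Six2-Qpc*−/− mice, referred to as mutants (n = 5), with 1 library per sample. *Qpc*, or *Uqcrq*, encodes the ubiquinone-binding subunit of mitochondrial complex III. Mutants carry floxed *Qpc* on both alleles and a bacterial artificial chromosome transgene that expresses a Cre and enhanced green fluorescent protein (eGFP) fusion from the *Six2* promoter. Controls are heterozygous for *Qpc*, and since they were sorted by the same eGFP, they carry the transgene too. Deletion is therefore limited to *Six2*-expressing cells and their descendants, and there is no group without Cre. The gate takes whichever cells still hold eGFP at E18.5. The paper reports a much smaller share of eGFP+ cells in mutant than in control kidneys. It also does not fully exclude that the control gate took some differentiating cells with little eGFP. The labels do not say whether each sample is a separate embryo or a pool, so p-values describe the spread between these samples, part of which may be technical.

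A collagen molecule is a trimer of chains wound around each other, made either from 1 kind of chain or from several that must be produced together. Fibrillar collagens (types I, II, III, V and XI) are cut at both ends outside the cell and pack into banded fibrils, collagen IV forms the sheet of basement membranes, FACITs sit on fibrils, and collagen VI makes beaded filaments around cells. In the developing kidney, collagens I and III are best known from the stroma between the tubules, whereas collagen IV surrounds tubules and vessels.

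Library totals ranged from 21040536 to 23986458 counts. *Uqcrq* stood at 94.1 ± 13.3 CPM (counts per 1000000 counts of the normalized library; mean ± SD, n = 4) in controls and at 21.3 ± 4.45 CPM (n = 5) in mutants, and each mutant library was below each control library. Of 9 markers of nephron progenitors, 0 passed by edgeR (2 at an unadjusted p under 0.05, 0 by DESeq2 and 1 by limma-voom). Of all genes tested 14.8% passed, a share at which few of 9 would pass, so the count of 0 does not set these markers apart. Their levels summed to 2123 to 2617 CPM in controls and 2133 to 2585 CPM in mutants. Among stromal markers, 6 of 11 tested were higher in mutants (54.5%, against 7.82% of all genes tested) and 1 was lower (9.09%, against 7.02%). All gene lists used here and below were chosen with earlier results of these data known. Such shares therefore describe these data and are not independent support. The stromal markers summed to 346 to 439 CPM in controls and 557 to 886 CPM in mutants. In the other settings 3 to 8 were higher, with 3 without control 73, 4 without control 72 or mutant 79, and 8 by DESeq2; *Acta2* passed in 7 of 18 and *Meis2* in 6 of 18. Myeloid markers summed to 35.5 CPM in mutant library 77 and to between 1.88 and 15.2 CPM in the other mutants. Controls held 0.0852 to 4.43 CPM. By edgeR 0 of 4 tested passed, against 14.8% of all genes (4 at an unadjusted p under 0.05 and by limma-voom, 2 by DESeq2). Ureteric bud markers summed to 44.9 to 62.9 CPM in controls and 27.4 to 49.4 CPM in mutants, mostly *Hoxb7* and *Wnt11*, whereas *Ret* (0.113 and 0.282 CPM) and *Wnt9b* (0.132 and 0.0256 CPM) were near 0. Erythroid markers summed to 1.39 to 2.66 and 1.43 to 2.40 CPM, and Schwann cell markers to 6.75 to 8.65 and 4.28 to 5.63 CPM. On the first principal component, which took 38.9% of the variance, control 76 and mutant 74 lay nearest to the other genotype (−21.4 and 8.38, against −54.2 to −46.0 in the other controls and 28.3 to 50.6 in the other mutants). In bulk libraries such as these, fewer cells of a type and less RNA per cell cannot be told apart.

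Of the 44 collagen genes, 36 had enough counts to be tested and 8 did not. By edgeR's quasi-likelihood test at an adjusted p of 0.05, 8 of the 36 rose in mutants (22.2%, against 7.82% of all 14990 genes tested) and 3 fell (8.33%, against 7.02%). Together these 11 genes are 30.6% of the members tested, against 14.8% of all genes in either direction. Without control 73, 5 rose, and without mutant 74 the number that fell was 5. Over all genes, in either direction, these settings called 1046 of 15267 and 3136 of 14790, against 2225 of 14990 with all libraries. In 9 of the 36 (25%) the control and mutant libraries did not overlap, against 15.2% of all genes. The median log2 fold change, mutant minus control, was 0.17 over the members and −0.01 over all genes, and the fitted change was above 0 in 19 members and below 0 in 17.

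The rises were spread over fibrillar chains (*Col1a1*, *Col3a1*), collagen VI (*Col6a1*, *Col6a2*, *Col6a3*), FACITs (*Col12a1*, *Col16a1*) and collagen IV (*Col4a4*). The falls were *Col2a1* (fibrillar), *Col9a1* (FACIT) and *Col18a1* (multiplexin). The main chains of collagen IV, *Col4a1* and *Col4a2*, passed in neither direction. *Col1a1*, *Col2a1*, *Col6a3*, *Col9a1*, *Col12a1* and *Col16a1* passed under 18 of 18 other settings, and *Col4a4* under 17 of the 17 that gave it a value. The calls of *Col3a1*, *Col6a1*, *Col6a2* and *Col18a1* depended on settings named beside their values.

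**Figure D1:**
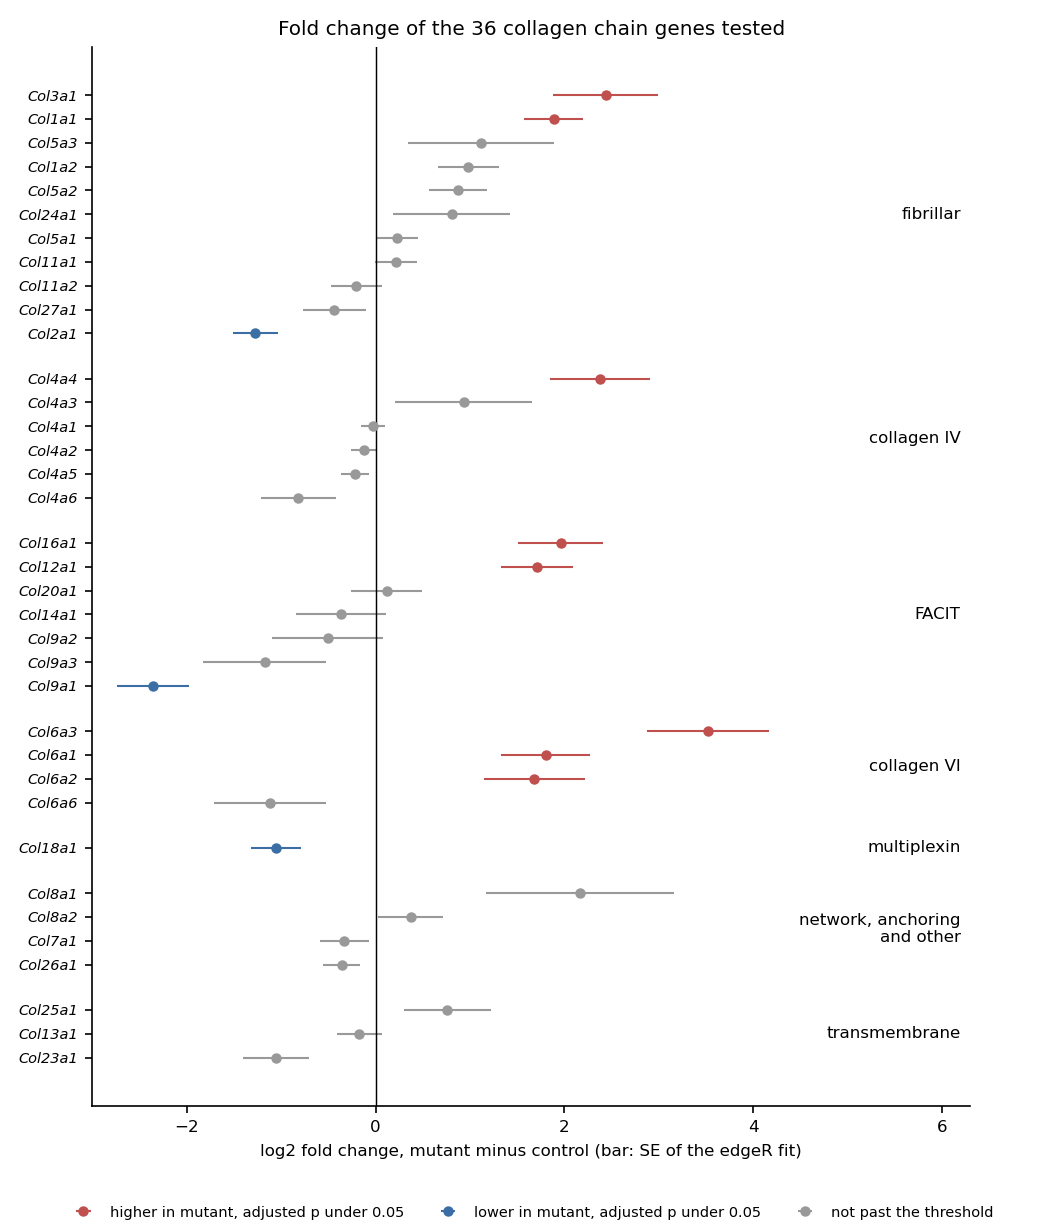
Log2 fold change, mutant minus control, of the 36 tested collagen genes, grouped by class, with bars for the standard error of the edgeR fit; red marks genes higher and blue genes lower in mutants at an adjusted p under 0.05, and gray the rest. Collagen VI holds the member furthest to the right (*Col6a3*, 3.52) and the FACITs the one furthest to the left (*Col9a1*, −2.36), and *Col4a1* lies close to 0 (−0.03), where its sign changes between settings.

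Levels between genes were compared as CPM per kilobase of exon, averaged over all 9 libraries. *Col26a1* was highest at 26.5, followed by *Col4a1* (16.1), *Col2a1* (14.5), *Col4a2* (13.6), *Col3a1* (9.52), *Col1a2* (8.52), *Col1a1* (8.48) and *Col18a1* (7.25). The order differed between the genotypes. In controls *Col2a1* came next to *Col26a1* (21.5 and 30.2 CPM per kilobase), with *Col18a1* at 10.2, *Col9a1* at 6.02, *Col1a2* at 5.52, *Col1a1* at 3.39 and *Col3a1* at 2.76. In mutants *Col3a1* (14.9), *Col1a1* (12.55) and *Col1a2* (10.9) stood above *Col2a1* (8.92), *Col18a1* (4.90) and *Col9a1* (1.17).

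The collagen genes together took 0.0689% ± 0.00993 of all counts in controls and 0.0713% ± 0.0199 in mutants, so the sum differed by less than its spread. The difference of 0.00243 percentage points turned to −0.00255 without mutant 74, to −0.00142 without mutant 75 and to −0.00115 without control 76, and it was 0.00677 with TMM-normalized library sizes. What differed was the make-up of that sum. Collagen VI took 1.31% to 1.66% of collagen counts in controls and 2.31% to 11.8% in mutants, without overlap. *Col18a1* and *Col15a1*, the multiplexins, took 7.15% to 12.2% in controls and 1.68% to 5.80% in mutants, and the transmembrane chains 1.06% to 1.10% and 0.712% to 0.931%, again without overlap. Fibrillar chains took 33.9% ± 4.10 in controls and 42.1% ± 8.58 in mutants, collagen IV 35.2% ± 3.01 and 31.4% ± 8.11, and FACITs 5.29% ± 1.26 and 4.42% ± 0.912, with overlap in each of these classes. Because such shares add up to a whole, a class can lose share when another gains, and no test was applied to these sums.

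**Figure D2:**
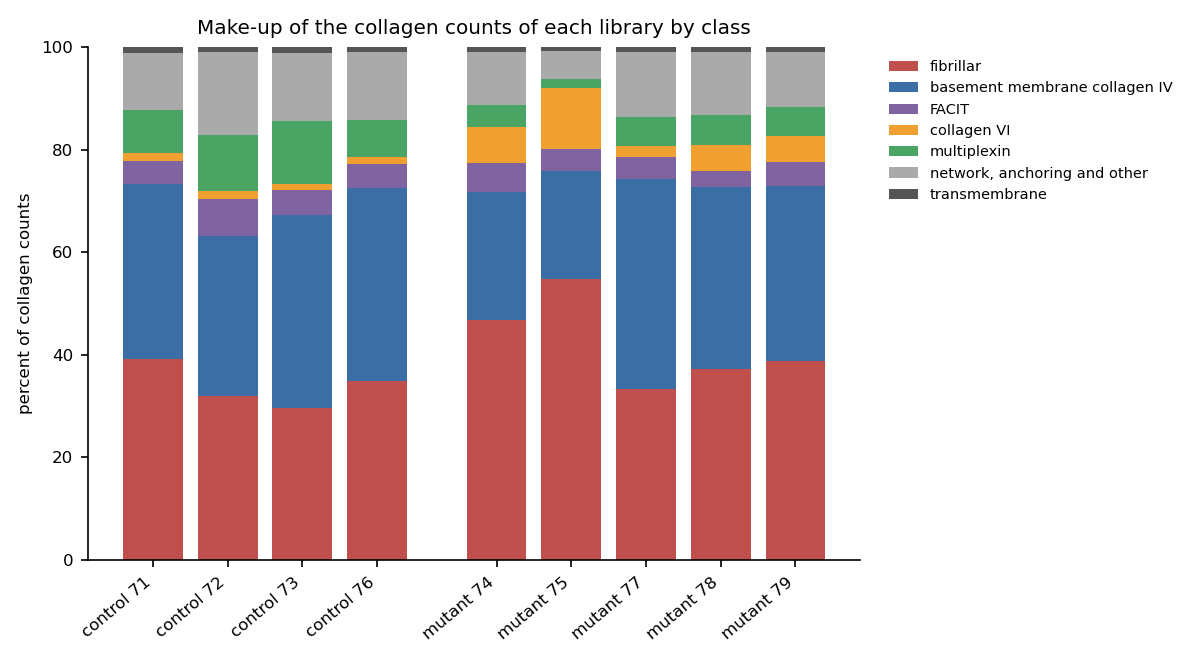
Percent of all collagen counts taken by each class, 1 bar per library with the 4 controls on the left and the 5 mutants on the right. The collagen VI segment is wider in each mutant (2.31% to 11.8%) than in each control (1.31% to 1.66%), and mutant 75 has the widest fibrillar segment (54.7%).

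Promoters were read from RefSeq (build GRCm38.p6) as the 250 bases before and the 50 after the first base of the transcript, and 35 of the 44 members had such a window. *Col1a1*, *Col2a1*, *Col4a3*, *Col5a2*, *Col9a3*, *Col12a1*, *Col14a1*, *Col22a1* and *Col26a1* had none. Windows are shown 5′ to 3′ on the gene's own strand for 3 genes that rose, 2 that fell and 1 highly expressed gene that did neither, since these carry the contrasts described here. Capitals mark, on either strand, the GC box GGGCGG, the CCAAT box CCAAT and the TATA box TATAAA, which share no letters with each other in these windows. The windows that rose are *Col3a1* (chr1:45311288-45311587, + strand), *Col6a1* (chr10:76725995-76726294, − strand) and *Col6a3* (chr1:90843922-90844221, − strand). Those that fell are *Col9a1* (chr1:24177360-24177659, + strand) and *Col18a1* (chr10:77166481-77166780, − strand), and *Col4a2* (chr8:11312555-11312854, + strand) is shown for comparison.
Col3a1: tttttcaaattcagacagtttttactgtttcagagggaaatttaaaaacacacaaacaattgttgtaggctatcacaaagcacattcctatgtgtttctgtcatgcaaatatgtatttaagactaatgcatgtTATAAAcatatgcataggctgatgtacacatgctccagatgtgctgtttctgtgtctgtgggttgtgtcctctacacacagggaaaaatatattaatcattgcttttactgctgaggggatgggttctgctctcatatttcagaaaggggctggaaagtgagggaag
Col6a1: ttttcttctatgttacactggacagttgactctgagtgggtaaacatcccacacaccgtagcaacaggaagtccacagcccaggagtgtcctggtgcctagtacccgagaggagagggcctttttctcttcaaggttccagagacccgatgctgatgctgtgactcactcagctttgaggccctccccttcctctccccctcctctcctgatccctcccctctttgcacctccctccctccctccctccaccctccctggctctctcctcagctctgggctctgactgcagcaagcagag
Col6a3: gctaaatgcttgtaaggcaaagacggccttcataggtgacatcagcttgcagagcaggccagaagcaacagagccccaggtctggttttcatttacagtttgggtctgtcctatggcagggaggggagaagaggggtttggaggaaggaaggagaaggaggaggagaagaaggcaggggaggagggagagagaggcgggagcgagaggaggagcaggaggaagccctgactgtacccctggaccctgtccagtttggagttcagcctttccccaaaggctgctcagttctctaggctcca
Col9a1: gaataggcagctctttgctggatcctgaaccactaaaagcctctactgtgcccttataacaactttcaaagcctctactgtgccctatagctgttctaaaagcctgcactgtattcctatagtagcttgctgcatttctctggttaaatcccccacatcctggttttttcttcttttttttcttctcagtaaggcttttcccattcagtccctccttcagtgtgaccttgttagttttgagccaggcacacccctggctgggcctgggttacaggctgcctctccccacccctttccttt
Col18a1: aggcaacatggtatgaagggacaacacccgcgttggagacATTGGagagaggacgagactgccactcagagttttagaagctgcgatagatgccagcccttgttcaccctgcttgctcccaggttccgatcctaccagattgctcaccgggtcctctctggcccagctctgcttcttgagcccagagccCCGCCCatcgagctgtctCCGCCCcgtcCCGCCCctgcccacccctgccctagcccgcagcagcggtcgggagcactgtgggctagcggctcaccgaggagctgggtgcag
Col4a2: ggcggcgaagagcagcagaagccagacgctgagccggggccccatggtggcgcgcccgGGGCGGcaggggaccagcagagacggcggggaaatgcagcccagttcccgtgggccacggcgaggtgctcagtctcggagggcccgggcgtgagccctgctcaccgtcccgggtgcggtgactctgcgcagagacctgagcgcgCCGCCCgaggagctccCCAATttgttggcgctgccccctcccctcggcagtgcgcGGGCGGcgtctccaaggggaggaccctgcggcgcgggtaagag

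CpG content varied widely among the windows. The *Col3a1* and *Col9a1* windows held 0 CpG each at a G+C content of 37.7% and 47.3%, and those of *Col6a1* and *Col6a3* held 3 each at 57.3% and 56.3%, whereas *Col18a1* held 16 and *Col4a2* 33. Among windows not shown, *Col16a1* and *Col4a4*, which rose, held 24 and 14, and *Col20a1* and *Col4a6*, which did not pass, held 1 and 3. *Col3a1* had 1 TATA box, starting at position −117 from the first transcribed base, and *Col6a1*, *Col6a3* and *Col9a1* had none of the 3 motifs. The median number of CpG was 4.5 over the 6 matched members that rose, 15.0 over the 20 that were tested and did not pass, and 7.0 over 27026 mouse promoters of this length, 1 per gene. A GC box was present in 2 of the 6 that rose, in 1 of the 2 that fell, in 17 of the 20 that did not pass and in 35.9% of all promoters. A CCAAT box was present in 12 of the 35 member windows (34.3%) and in 37.9% of all promoters, and a TATA box in 5 (14.3%) and 14.2%. These are descriptions of letters in a short window, and a motif outside it would not be seen.

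Fibrillar chains are the tensile part of the matrix. Of 11 tested, 2 rose (18.2%, against 7.82% of all genes) and 1 fell (9.09%, against 7.02%), and the median log2 fold change was 0.81. In what follows, control values are given in the order of libraries 71, 72, 73 and 76 and mutant values in the order 74, 75, 77, 78 and 79.

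*Col1a1* (chr11:94936224-94953042, + strand), which encodes the more abundant chain of collagen I, was measured at 19.5, 18.54, 16.6 and 25.8 CPM in controls and at 88.8, 127, 37.5, 44.5 and 74.04 CPM in mutants. Each mutant was above each control, with mutants 75 and 74 highest and 77 lowest. The log2 fold change was 1.89 ± 0.32 (SE), or 3.70-fold (adjusted p = 0.00334, edgeR), and 1.61 without mutant 75 (adjusted p = 0.00343).

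*Col1a2*, the partner chain of collagen I, stood at 29.4, 27.4, 28.7 and 32.6 CPM in controls and at 86.8, 90.0, 30.8, 27.4 and 56.8 CPM in mutants. Mutants 74, 75 and 79 lay above the controls, and 77 and 78 within their range. The log2 fold change of 0.98 ± 0.32 had an adjusted p of 0.0552 (edgeR). It passed by DESeq2 (adjusted p = 0.00767), with at least 10 counts required in every library (0.04998), without mutant 77 (0.0272) and without mutant 78 (0.0199).

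*Col3a1* (chr1:45311538-45349706, + strand), the single chain of collagen III, stood at 19.9, 11.4, 6.79 and 23.2 CPM in controls and at 94.9, 180, 38.8, 44.4 and 57.4 CPM in mutants. The genotypes did not overlap, and mutant 75 was again highest. This was a rise of 5.42-fold, a log2 fold change of 2.44 ± 0.56 (adjusted p = 0.0219, edgeR). It missed the threshold without control 72 (adjusted p = 0.0831), without control 73 (0.0519) and with no filter on low counts (0.0647), and it fell to 1.94 without mutant 75 but still passed (0.00804).

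*Col2a1* (chr15:97975602-98004695, − strand), the chain of collagen II and best known from cartilage, went the other way. Controls held 126.2, 131, 104 and 78.9 CPM and mutants 70.4, 31.9, 28.9, 45.4 and 50.9 CPM. No mutant reached the lowest control, 76, and mutant 74 came nearest to it. The log2 fold change was −1.27 ± 0.24, a level 2.42-fold lower (adjusted p = 0.00485, edgeR).

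The remaining fibrillar chains did not pass. *Col5a1* and *Col5a2*, chains of collagen V that seed fibrils, had log2 fold changes of 0.23 (adjusted p = 0.522) and 0.88 (adjusted p = 0.0681, edgeR), and *Col5a2* passed by DESeq2 (0.0206) and without mutant 77 (0.0390). *Col5a2* lies tail to tail with *Col3a1* on chromosome 1. *Col11a1* and *Col11a2* (collagen XI, a partner of collagen II in cartilage fibrils) had changes of 0.22 and −0.20, and *Col5a3*, *Col24a1* and *Col27a1* of 1.12, 0.81 and −0.44.

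Other cartilage transcripts were set beside *Col2a1*. *Acan* and *Comp*, of the cartilage matrix, averaged 0.0632 and 0.0417 CPM in controls and 0.174 and 0.0102 CPM in mutants. *Matn1* averaged 5.12 and 5.89 CPM in controls and mutants, *Lect1* 2.10 and 2.12 CPM, and *Matn3* 0.869 and 0.891 CPM, with log2 fold changes of 0.20, 0.01 and 0.05 that did not pass. The 6 listed cartilage markers summed to 20.6 to 39.6 CPM in controls and 17.1 to 42.1 CPM in mutants, mostly from *Sox9*. By edgeR 0 of the 4 tested passed, against 14.8% of all genes. The count was also 0 at an unadjusted p under 0.05, by DESeq2 and by limma-voom. *Sox9*, a transcription factor that cartilage and several kidney lineages share, stood at 23.3 ± 8.39 and 19.8 ± 7.38 CPM. The part of cartilage cells in the *Col2a1* value was not tested.

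**Figure D3:**
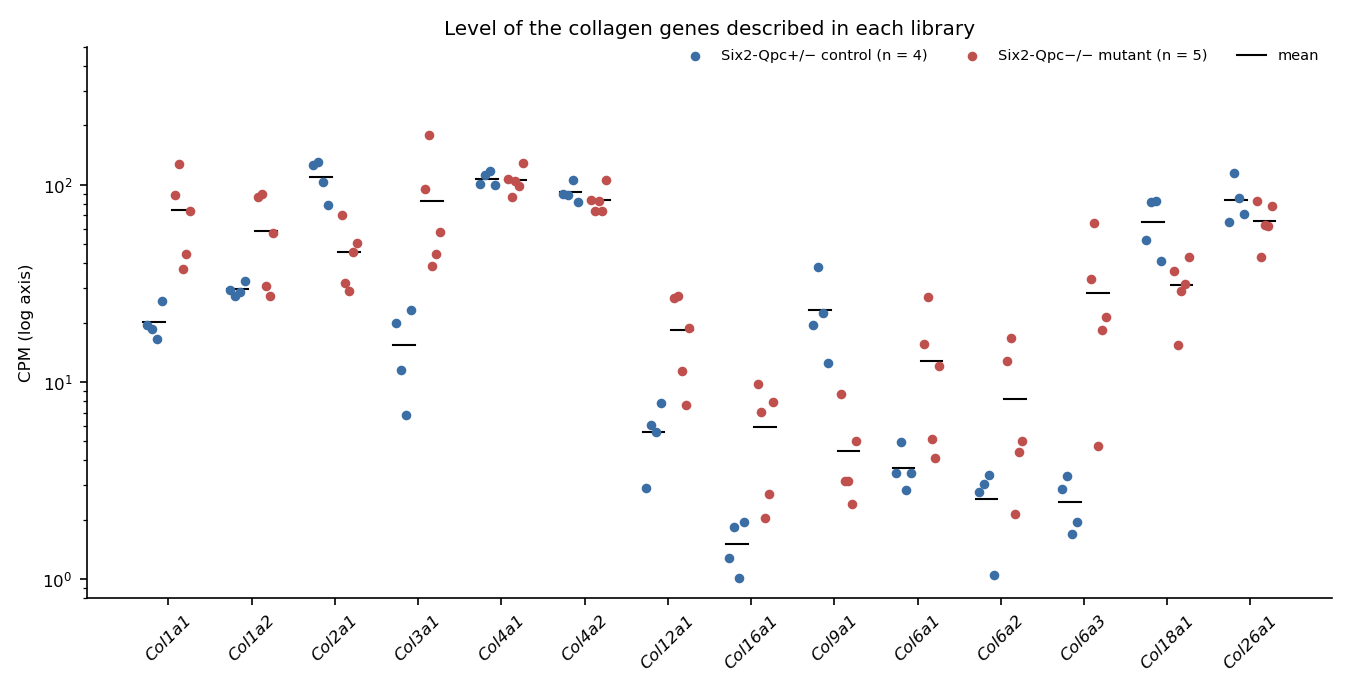
CPM on a log axis of the 14 collagen genes described by library, with 1 point per library, the 4 controls in blue and the 5 mutants in red, and a line at each mean. The points of *Col1a1*, *Col3a1*, *Col16a1* and *Col6a3* separate with mutants above, and those of *Col2a1* and *Col9a1* with mutants below, whereas *Col4a1*, *Col4a2* and *Col26a1* overlap.

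Collagen VI filaments are built from the chains of *Col6a1*, *Col6a2* and 1 more, for which *Col6a3* is the usual one. All of these rose, and 3 of the 4 tested collagen VI chains passed (75%, against 7.82% of all genes higher), with a median log2 fold change of 1.74. *Col6a3* (chr1:90765923-90843971, − strand) was measured at 2.85, 3.35, 1.69 and 1.94 CPM in controls and at 33.4, 63.9, 4.74, 18.3 and 21.3 CPM in mutants. Mutant 75 held the most and mutant 77 the least, and all 5 lay above the controls. Its rise of 11.5-fold was a log2 fold change of 3.52 ± 0.65 (adjusted p = 0.00767, edgeR), and it ranged from 2.98, without mutant 75, to 3.80 when libraries were left out in turn.

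*Col6a1* (chr10:76708792-76726168, − strand) stood at 3.45, 4.95, 2.82 and 3.46 CPM in controls and at 15.6, 27.0, 5.15, 4.13 and 12.1 CPM in mutants. Mutant 78 fell within the control range, and mutant 77 just above it. The log2 fold change of 1.80 ± 0.47 (adjusted p = 0.0229, edgeR) missed the threshold without control 71 (0.0680), without control 73 (0.0765), without control 76 (0.0520), by limma-voom (0.0624) and with no filter (0.0985). Without mutant 75 it was 1.33 (adjusted p = 0.0467).

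*Col6a2* (chr10:76595762-76623630, − strand), next to *Col6a1* and on the same strand, stood at 2.77, 3.04, 3.37 and 1.05 CPM in controls and at 12.7, 16.6, 2.14, 4.43 and 5.04 CPM in mutants. Mutant 77 was inside the control range. Its log2 fold change of 1.68 ± 0.53 lay at the threshold (adjusted p = 0.0499, edgeR) and passed in 4 of 18 other settings, with adjusted p from 0.0225 to 0.177. It passed in 1 of the 9 settings that left out a library, and without mutant 75 it was 1.25 (adjusted p = 0.117).

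The remaining collagen VI genes, *Col6a4*, *Col6a5* and *Col6a6*, can stand in for *Col6a3* and lie side by side on chromosome 9. *Col6a4* and *Col6a5* had between 0 and 10 counts per library and were not tested. *Col6a6* had 18 to 32 counts in controls and 2 to 21 in mutants, with a log2 fold change of −1.12 that did not pass (adjusted p = 0.222, edgeR).

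Among the mutants, the libraries with the most *Col1a1*, *Col3a1* and *Col6a3* RNA also had the highest sum of stromal markers. In mutants 74, 75, 77, 78 and 79 the 12 stromal markers summed to 653, 886, 557, 568 and 630 CPM. *Meis2* alone gave 310.5 to 357.7 CPM of these sums, and not every marker followed their order. *Pdgfra*, *Meis1*, *Postn*, *Acta2* and *Ntn1* were highest in mutant 75. *Foxd1* and *Dcn* were highest in mutant 78 (47.1 and 45.4 CPM), and *Lum* was highest in mutant 77 and lowest in 75 (19.5 and 9.39 CPM). Control 76 held 40.2 CPM of *Dcn* and 17.6 CPM of *Lum*, within the mutant ranges. *Pdgfra*, a receptor of stromal fibroblasts, averaged 4.14 ± 2.24 CPM in controls and 52.4 ± 38.4 CPM in mutants (log2 fold change 3.66, adjusted p = 0.00622, edgeR), and *Foxd1*, which defines stromal progenitors, 29.9 ± 4.41 and 44.6 ± 2.15 CPM (0.58, adjusted p = 0.0121). *Pdgfrb*, in contrast, averaged 10.7 and 7.50 CPM (−0.51, adjusted p = 0.315), *Cspg4* fell (−1.61, adjusted p = 0.0160), and *Tbx18* was near 0 (0.197 and 0.537 CPM). The part of stromal cells in the collagen values was not tested.

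FACITs bind the surface of fibrils. Of 7 tested, 2 rose (28.6%, against 7.82% of all genes) and 1 fell (14.3%, against 7.02%), and the median log2 fold change was −0.36. *Col12a1* (chr9:79598991-79718831, − strand), found on collagen I fibrils, stood at 2.90, 6.07, 5.61 and 7.85 CPM in controls and at 26.8, 27.3, 11.3, 7.67 and 18.7 CPM in mutants. Mutant 78 was just below control 76, and the other mutants lay above the controls. The log2 fold change was 1.71 ± 0.38, or 3.27-fold (adjusted p = 0.0113, edgeR).

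*Col16a1* (chr4:130047840-130099283, + strand) stood at 1.28, 1.83, 1.011 and 1.94 CPM in controls and at 9.80, 7.04, 2.04, 2.71 and 7.94 CPM in mutants. The genotypes did not overlap, but mutants 77 and 78 were close to the controls. This rise was 3.89-fold, with a log2 fold change of 1.96 ± 0.45 (adjusted p = 0.0133, edgeR).

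*Col9a1* (chr1:24177610-24252684, + strand), a chain of collagen IX that covers collagen II fibrils, fell. Controls held 19.4, 38.1, 22.3 and 12.5 CPM and mutants 8.65, 3.14, 3.16, 2.41 and 5.04 CPM. Each mutant lay below control 76, the lowest control. The level was 5.13-fold lower (log2 fold change −2.36 ± 0.38, adjusted p = 0.00243, edgeR), and −2.74 to −2.01 when libraries were left out in turn.

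The partner chains of *Col9a1* were scarce. *Col9a2* had 3 to 19 counts in controls and 4 to 16 in mutants, and *Col9a3* had 9 to 48 and 2 to 29, with log2 fold changes of −0.51 (adjusted p = 0.597) and −1.18 (adjusted p = 0.237, edgeR). *Col9a3* passed by limma-voom (−1.90, adjusted p = 0.0260) and without mutant 74 (−1.99, 0.0330). *Col14a1* and *Col20a1* did not pass (−0.36 and 0.12, the latter changing sign between settings), *Col22a1* had 0 to 10 counts per library and *Col19a1* 0 in every control and 0 to 2 in mutants.

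Collagen IV forms 3 kinds of trimer, and its 6 genes lie as 3 pairs that are transcribed away from each other. *Col4a1* (chr8:11198423-11312826, − strand) and *Col4a2* (chr8:11312805-11449287, + strand) make the trimer present in almost all basement membranes. *Col4a1* stood at 100, 112, 118 and 99.7 CPM in controls and at 108, 86.8, 105, 99.2 and 129 CPM in mutants, so the genotypes overlapped (log2 fold change −0.03 ± 0.12, adjusted p = 0.902, edgeR). *Col4a2* stood at 90.2, 89.2, 106 and 81.6 CPM and at 84.2, 73.6, 83.2, 73.7 and 106 CPM (−0.13 ± 0.13, adjusted p = 0.553). The SD was 9.02 and 15.4 CPM for *Col4a1* and 10.3 and 13.1 CPM for *Col4a2*, in controls and mutants. The exons of these 2 genes overlap by 22 bases at their starts, which is 0.29% and 0.33% of their length.

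*Col4a3*, *Col4a4* and *Col4a5* make the trimer of the mature glomerular basement membrane. *Col4a4* rose (log2 fold change 2.38, adjusted p = 0.0114, edgeR) from 8 to 18 counts per control library to 21 to 138 per mutant library, without overlap, and it is described although its level was under 5 CPM. *Col4a3*, with 0 to 29 and 10 to 39 counts, did not pass (0.93, adjusted p = 0.406). Podocytes are the usual source of this trimer, and their marker *Nphs1* was at 0.0738 CPM in controls and 0.155 CPM in mutants. By edgeR 0 of 3 tested podocyte markers passed, against 14.8% of all genes (2 at an unadjusted p under 0.05, 0 by DESeq2 and 1 by limma-voom). Their part in the *Col4a4* value was not tested.

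*Col4a5* and *Col4a6*, paired on the X chromosome, had log2 fold changes of −0.22 (adjusted p = 0.341) and −0.82 (adjusted p = 0.180, edgeR). *Col4a6* did not overlap between the genotypes (171 to 267 and 18 to 155 counts), and it passed by limma-voom alone among the other settings (−1.33, adjusted p = 0.0447).

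The multiplexins *Col15a1* and *Col18a1* are basement membrane collagens with attached glycosaminoglycan chains, and the end of the *Col18a1* product can be cut off as endostatin. *Col18a1* (chr10:77052178-77166548, − strand) stood at 52.7, 81.7, 82.7 and 41.3 CPM in controls and at 36.4, 15.4, 28.9, 31.5 and 43.1 CPM in mutants. Mutant 79 lay just above control 76, and mutant 75 was lowest. The level was 2.08-fold lower (log2 fold change −1.06 ± 0.27, adjusted p = 0.0198, edgeR), and it missed the threshold without control 72 (0.0632), without control 73 (0.0712) and with no filter (0.0626). Endothelial cells also make collagen XVIII. Their 7 markers summed to 27.7 to 35.5 CPM in controls and 11.9 to 20.03 CPM in mutants, mostly from *Plvap* and *Egfl7*. These were lower in mutants (−1.88 and −0.68, adjusted p = 0.00121 and 0.0180, edgeR). *Pecam1* was higher (2.42, adjusted p = 0.0470, edgeR) and passed in 7 of 13 other settings. It had 0 to 9 counts in controls and 9 to 57 in mutants, so the filter kept it through the mutant libraries. *Cdh5* averaged 0.0106 and 0.296 CPM in controls and mutants, *Tie1* 0.0389 and 0.243, *Kdr* 0.411 and 0.687, and *Emcn* 2.69 and 2.40. The markers thus went in both directions. The part of endothelial cells in the *Col18a1* value was not tested. *Col15a1* had 3 to 12 counts in controls and 0 to 4 in mutants and was not tested.

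The most abundant collagen transcript per length, *Col26a1* (chr5:136741759-136883209, − strand), encodes a short collagen outside the fibril, network and FACIT classes. It stood at 65.1, 114, 85.9 and 71.05 CPM in controls and at 82.5, 43.1, 62.3, 62.1 and 77.9 CPM in mutants. These ranges overlapped, and the log2 fold change of −0.36 ± 0.20 did not pass (adjusted p = 0.233, edgeR), except by limma-voom (−0.46, 0.0455). None of the other 3 tested chains of this class passed by edgeR: *Col7a1* of anchoring fibrils (−0.33), and *Col8a1* and *Col8a2* of the collagen VIII network (2.17 and 0.37), of which *Col8a1* had 0 to 18 counts in controls and 0 to 74 in mutants. *Col10a1* and *Col28a1* had 0 to 3 counts per library.

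Transmembrane collagens are held in the plasma membrane and can be shed. *Col23a1* had 50 to 67 counts in controls and 12 to 38 in mutants, without overlap, and a log2 fold change of −1.06 just short of the threshold (adjusted p = 0.0557, edgeR). It passed in 6 of 18 other settings, with adjusted p down to 0.00608. *Col13a1* and *Col25a1* had changes of −0.17 and 0.76 that did not pass, and *Col17a1* had 0 to 23 counts.

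Since trimers need their chains in fixed numbers, the ratio of partner chains was compared as the log2 ratio of counts per length in each library. Of 11 pairs, 7 had at least 10 counts of both chains in every library. Differences were tested by a 2-sided exact permutation test of 4 against 5 libraries, whose smallest p is 0.0159, with adjustment over the 7 ratios.

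*Col1a1* over *Col1a2* was −0.74, −0.71, −0.94 and −0.49 in controls and −0.12, 0.35, 0.13, 0.55 and 0.23 in mutants. The genotypes did not overlap, and on average *Col1a1* went from 0.607 to 1.17 times the level of *Col1a2* (difference of the log2 ratios 0.95, exact p = 0.0159, adjusted 0.0370).

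*Col6a3* over *Col6a1* was −1.57, −1.86, −2.05 and −2.14 in controls and −0.20, −0.06, −1.42, 0.84 and −0.49 in mutants. Each mutant was above each control, with mutant 77 nearest, and the mean went from 0.267 to 0.832 times (difference 1.64, exact p = 0.0159, adjusted 0.0370). *Col5a1* over *Col5a2* moved down, from 1.24 to 1.52 in controls to 0.29 to 1.09 in mutants (difference −0.61, exact p = 0.0159, adjusted 0.0370), which is a fall from 2.54 to 1.66 times.

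The other 4 ratios did not pass. *Col4a1* over *Col4a2* was 0.20 ± 0.09 in controls and 0.29 ± 0.07 in mutants (exact p = 0.127, adjusted 0.178), and *Col6a1* over *Col6a2* was 0.88 ± 0.83 and 0.94 ± 0.60 (exact p = 0.889, adjusted 0.889). *Col11a1* over *Col11a2* was 0.67 ± 0.40 and 1.06 ± 0.40 (exact p = 0.206, adjusted 0.241), and *Col4a5* over *Col4a6* 1.41 ± 0.43 and 2.30 ± 1.21 (exact p = 0.127, adjusted 0.178).

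**Figure D4:**
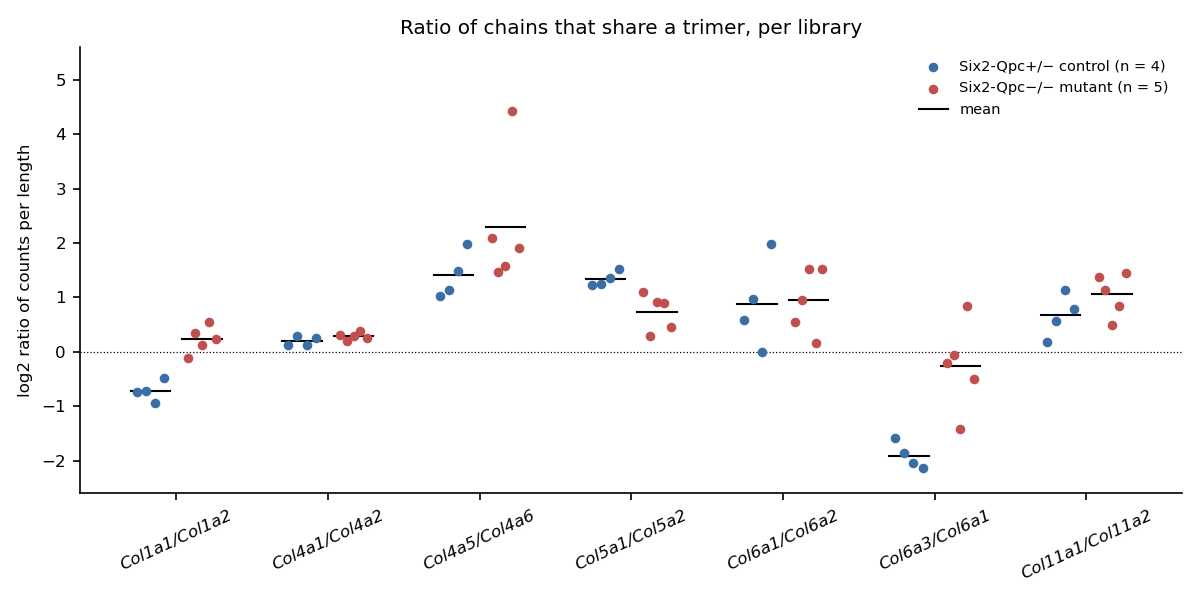
Log2 ratio of counts per length for 7 pairs of chains that share a trimer, 1 point per library with controls in blue (n = 4), mutants in red (n = 5) and lines at the means. *Col1a1*/*Col1a2* and *Col6a3*/*Col6a1* lie higher and *Col5a1*/*Col5a2* lower in each mutant than in each control, and mutant 78 stands at 4.42 for *Col4a5*/*Col4a6*.

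Collagen chains are hydroxylated, folded and carried out of the endoplasmic reticulum by a shared set of enzymes and chaperones. Of 22 tested genes of this set, 0 rose (against 7.82% of all genes) and 7 fell (31.8%, against 7.02%) by edgeR, with a median log2 fold change of −0.29. At an unadjusted p under 0.05, 1 rose and 11 fell, by DESeq2 1 rose and 9 fell, and over all other settings 0 to 2 rose and 3 to 11 fell. *Sparc*, a collagen-binding chaperone and matrix glycoprotein, fell from 2140 ± 128 to 1373 ± 33.3 CPM (−0.64 ± 0.10, adjusted p = 0.00196, edgeR). *Plod1*, a lysyl hydroxylase, fell from 73.8 ± 11.8 to 43.1 ± 9.84 CPM (−0.78, adjusted p = 0.0104), and *P4ha3*, a prolyl 4-hydroxylase subunit, from 93.8 ± 15.4 to 63.5 ± 5.23 CPM (−0.56, adjusted p = 0.0121).

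*Lepre1* and *Leprel2*, which encode prolyl 3-hydroxylases, fell too (−0.56 and −0.91, adjusted p = 0.0376 and 0.0254, edgeR). *Leprel1*, another prolyl 3-hydroxylase, had a change of 1.66 that did not pass (adjusted p = 0.0870, edgeR). It had 2 to 25 counts in controls and 17 to 38 in mutants. *Fkbp10*, a prolyl isomerase that acts on collagen I, fell (−0.50, adjusted p = 0.0178, edgeR). The remaining gene that fell, *Tango6* (−0.79, adjusted p = 0.0283), is known for Golgi organization rather than for collagen. *Serpinh1*, the collagen chaperone HSP47, ranged widely within each genotype (470 ± 206 and 440 ± 176 CPM, −0.10, adjusted p = 0.872), and *P4hb* and *P4ha1* had changes of −0.14 (adjusted p = 0.364) and −0.47 (adjusted p = 0.0656). *P4ha3*, *Plod1* and *Sparc* passed in 18 of 18 other settings, *Fkbp10* in 16, and *Lepre1*, *Leprel2* and *Tango6* in 11, 12 and 12.

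Outside the cell, propeptides are cut off and fibrils are crosslinked. Of 10 tested genes, 1 rose (10%, against 7.82% of all genes) and 2 fell (20%, against 7.02%). *Tgm2*, a transglutaminase, went from 2.54 ± 1.84 to 17.2 ± 10.1 CPM (2.75 ± 0.53, adjusted p = 0.00599, edgeR), *Bmp1*, which cuts the C-propeptide, fell (−0.58, adjusted p = 0.0331), and *Loxl3*, a lysyl oxidase, fell (−1.001, adjusted p = 0.0186). In the other settings *Tgm2* passed in 18 of 18, *Loxl3* in 15 and *Bmp1* in 11, and 0 of the list fell without control 72, without control 73 and with Y-linked expression as covariate. *Lox*, *Loxl1* and *Loxl2* did not pass (−0.47, 0.25 and −0.06).

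Of 10 tested proteinases and inhibitors, *Mmp16* (0.44, adjusted p = 0.0491) and *Fap* (3.12, adjusted p = 0.0261, at a mutant mean of 2.11 CPM) rose and *Mmp2* fell (−0.73, adjusted p = 0.0461, edgeR). That is 20% higher and 10% lower, against 7.82% and 7.02% of all genes. *Fap* had 0 to 12 counts in controls and 6 to 116 in mutants, so the filter kept it through the mutant libraries. Its place in the 20% therefore rests on the genotype in which it is high. In the other settings *Mmp16* passed in 8 of 18, *Mmp2* in 7 of 18 and *Fap* in 13 of 17, and 0 of the list passed without control 71, without control 73 or without mutant 75. *Mmp14*, a membrane-bound collagenase, did not pass (−0.27, adjusted p = 0.239).

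Of 7 tested collagen receptors, 1 rose (14.3%, against 7.82% of all genes) and 1 fell (14.3%, against 7.02%). *Ddr2*, a receptor tyrosine kinase for fibrillar collagen, rose from 1.76 ± 0.777 to 8.77 ± 5.45 CPM (2.32 ± 0.50, adjusted p = 0.00987, edgeR). *Itga11*, an integrin chain that binds collagen I, fell from 23.0 ± 3.40 to 11.5 ± 2.76 CPM (−1.004 ± 0.19, adjusted p = 0.00534). The related receptor *Ddr1* and the common integrin chain *Itgb1* did not pass (0.02 and 0.18).

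Proteins that coat fibrils were tested for 11 genes, of which 3 rose (27.3%, against 7.82% of all genes) and 0 fell (against 7.02%) by edgeR, with a median log2 fold change of 1.03. At an unadjusted p under 0.05, and by DESeq2, 5 rose and 0 fell, and limma-voom gave 5 and 1. Over all other settings 2 to 5 rose and 0 to 1 fell, and the 2 came with no filter on low counts. *Fn1* (fibronectin) went from 21.6 ± 2.27 to 63.5 ± 34.5 CPM (1.56, adjusted p = 0.00966, edgeR), *Thbs1* (thrombospondin) from 9.37 ± 2.95 to 41.3 ± 17.0 CPM (2.14, adjusted p = 0.00116), and *Ogn*, a small leucine-rich proteoglycan, from 1.66 ± 0.685 to 17.1 ± 17.1 CPM (3.36, adjusted p = 0.00748). *Dcn*, *Lum* and *Postn*, which are also on the stromal marker list, did not pass (adjusted p = 0.0663, 0.273 and 0.0624).

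**Figure D5:**
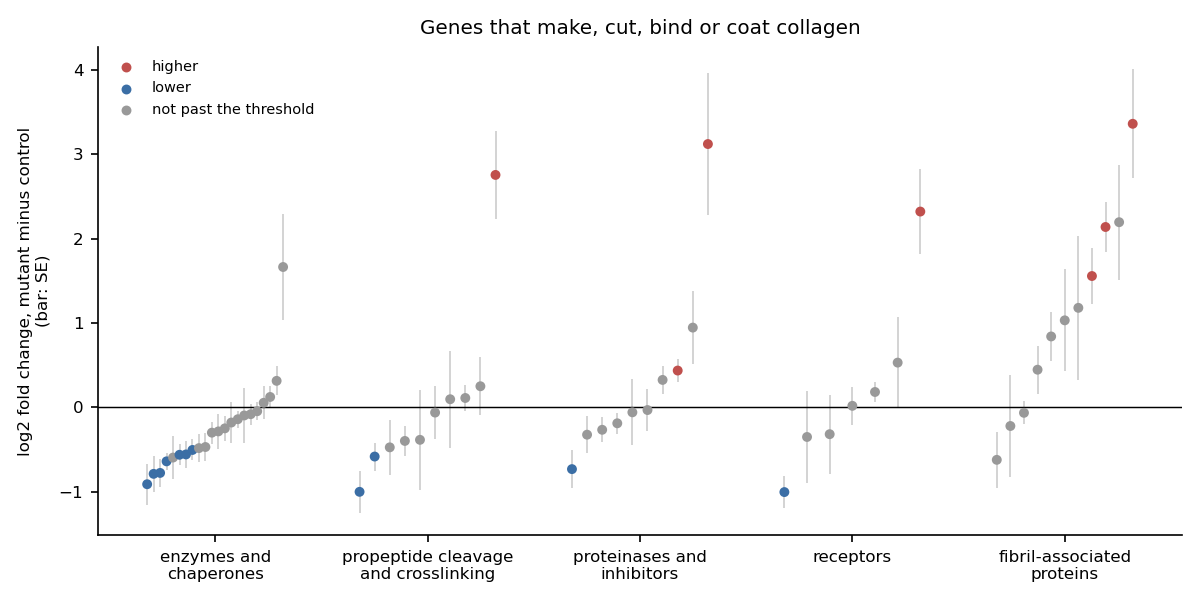
Log2 fold change, mutant minus control, of the tested genes of 5 lists of collagen enzymes, processing, degradation, receptors and fibril coating, with bars for the SE and colors as before. All colored points of the enzymes and chaperones lie below 0 (7 of 22 genes), and all colored points of the fibril-associated proteins lie above 0 (3 of 11).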

How the data were processed

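RNA from sorted eGFP+ cells was amplified as cDNA with a low-input kit, selected for poly(A) and sequenced without strand, so a read from a stretch shared with an antisense gene cannot be assigned. The submitters' processing notes name STAR, DESeq2 and mm10; their counting tool is not given in the sources used here. The authors deposited 1 column of counts per library for 26858 genes, and these counts were the values analysed. Deposited FPKM, signal means per genotype, the authors' log2 fold changes and their p-values were not used.

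Library totals of 21040536 to 23986458 counts leave little counting error in the main chains, whose precision is set by differences among libraries, whereas for scarce chains the counts are given. Tests used edgeR 4.0.16 in R 4.3.3 (filterByExpr on genotype, TMM, robust quasi-likelihood test) across all 14990 genes kept, with Benjamini-Hochberg adjusted p under 0.05 as threshold. CPM use the TMM-normalized library size, and an SE is obtained from a fold change and its F statistic (log2 value over root F). Partner ratios used plain counts, with 0.5 added as an alternative. Alternatives were 2 other normalizations (RLE, upper quartile), 2 filters, DESeq2 1.42.0, limma-voom with sample weights (limma 3.58.1), 1 surrogate variable (sva 3.50.0), Y-linked expression as covariate, removal of a length trend, and each library left out. Exact permutation tests used SciPy 1.17.1 (Python 3.11.15, pandas 2.3.3) and figures matplotlib 3.10.9. The edgeR code was run on counts simulated gene by gene from means and dispersions that edgeR had estimated here. Such a run checks the code and cannot show how well the test handles real differences among these libraries.

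Gene positions are those of GENCODE M21 (GRCm38). They equal the deposited ones for 41 of 44 members. The deposited gene ID matched the symbol for 38, and the 6 others, *Col4a4* among them, were taken by symbol. Members that passed with a mean of at least 5 CPM in either genotype, and the 6 with the highest level per length, are given by library. Promoters came from RefSeq, taking the start nearest the deposited 5′ end. The members and all lists were chosen with earlier results of these data known.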

Additional observations from a re-analysis of the deposited data

Results flagged for a closer look

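The log2 ratio of *Col4a5* to *Col4a6* in mutant 78 was 4.42, far from the other mutants, which lay between 1.48 and 2.09, and its gap to the nearest exceeded the 95% limit of Dixon's test for 5 samples. In that library *Col4a6* had 18 counts, the fewest of any library. Of 58 sets of values tested in this way 1 stood out, where chance gives about 2.9.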

How the results depend on the processing

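No paired analysis was possible because control and mutant libraries share no replicate number. The count of collagen genes that rose was 8 and became 5 with no filter on low counts, for which the cause was not tested, and 5 (without control 73) to 10 when 1 library was left out. The count that fell was 3 and became 7 by limma-voom, again with the cause not tested, and 2 to 5 (without mutant 74) when 1 library was left out. The number of all genes called, in either direction, moved too. It was 2225 of 14990 in the main fit, 4858 of 14990 by limma-voom and 1975 of 26858 with no filter. Without control 73 it was 1046 of 15267, and without mutant 74 it was 3136 of 14790. Of 637 other values of single members, 589 kept their direction and side of the threshold, 25 missed it, 16 passed it and 7 changed sign. Sign changes were those of *Col11a2* by limma-voom (0.027), of *Col4a1* with 1 surrogate variable (0.051), with Y-linked expression (0.047) and on leaving out libraries (−0.111 to 0.035), and of *Col20a1* on leaving out libraries (−0.092 to 0.281). The difference in collagen share ranged from −0.00255 to 0.00801 percentage points when 1 library was left out.

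The difference in log2 ratio without 1 library ranged from 0.87 to 1.04 for *Col1a1*/*Col1a2*, from −0.70 to −0.50 for *Col5a1*/*Col5a2* and from 1.36 to 1.93 for *Col6a3*/*Col6a1*. With 8 libraries the smallest exact p is 0.0286 or 0.0357, and with 3 of the 7 ratios at that p the adjusted values were 0.0667 or 0.0833, over the threshold. For *Col6a1*/*Col6a2* it ranged from −0.23 to 0.43. The median of all genes moved by at most 0.05 between settings. Among scarce chains, the change of 2.17 in *Col8a1* had an SE of 0.998, at 0 to 18 and 0 to 74 counts per library.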
